A study of Rattus norvegicus with 10 samples.

Results

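The untreated cultures of the series are the control libraries of its 2 projects, 5 of the 10 libraries in all. The libraries were taken by their group labels, but this part of the series was chosen with earlier results of these data known. All were primary neuron cultures from the cortices of newborn Wistar rat pups, grown to day 14 in vitro. The 3 Control_TSA cultures were the time-matched controls of cultures that received 100 nM trichostatin A (TSA) for 19 h. The 2 Control_NaB cultures were the time-matched controls of cultures that received sodium butyrate (NaB) for 24 h, at a dose given as 5 µM in the labels and in the millimolar range in the methods of the study, and came from a separate project. No control culture received a drug, no allele or transgene was involved, and the sex of the pups and the number of pups per culture are not given in the sources used here. Each control shared a plate with its treated culture, and the cultures were described as different biological replicates. Project, incubation time and whatever else differed between the projects cannot be told apart in any comparison of Control_NaB with Control_TSA. Each drug was compared with the controls of its own project, so that a contrast between the drugs also carries any difference between these baselines.

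A primary cortical culture holds neurons together with astrocytes, cells of the oligodendrocyte lineage and progenitors, and, depending on the dissection, cells of the meninges and vessels. TSA and NaB inhibit histone deacetylases, enzymes that remove acetyl groups from histones, and the control cultures set the level from which their effects are measured. In bulk RNA of such cultures, fewer cells of a type and less RNA per cell cannot be told apart. Symbols could be paired with 1911 of the 32883 gene identifiers, and all of these come from the rows at hand of a list of genes that the drugs upregulated against these same controls. The named genes are therefore only a part of that list and not a random sample of the genes, and their counts and medians below carry that choice. No gene of the pan-neuronal, excitatory neuron, astrocyte, oligodendrocyte or oligodendrocyte precursor lists was paired with an identifier, so that the labelled cell type could not be checked against its defining markers.

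The control libraries were alike in depth, with 27124552, 26956397 and 27649249 reads in Control_TSA and 26748731 and 26902233 reads in Control_NaB. At this depth 3 reads equal 0.109 to 0.112 CPM (counts per 1000000 reads), which allows for counting error and nothing else. A read was found for 18680 to 18872 genes in the Control_TSA libraries and for 19163 and 19404 genes in the Control_NaB libraries. The ranges of the groups did not overlap. Of the 32883 genes, 22257 had a read in at least 1 control library, 16495 had a read in every one, and 10626 had none in any of them. In all 5 control libraries 12562 genes reached 1 CPM, 9051 reached 10 CPM, 2007 reached 100 CPM and 68 reached 1000 CPM. The most abundant gene held 1.58 to 2.03% of the reads of a control library, and the 100 most abundant genes held 19.1 to 21.2%.

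The 1911 named genes, a part of the list of genes that the drugs upregulated, were for the most part detected in untreated cultures. At most 3 reads in each of the 5 control libraries were counted for 270 of them (14.1%), and 31 had no read at all. The share over all genes in the file was 47.8%, a value that cannot be set against theirs, since a gene needed reads to enter the list. At the other end, 174 of them reached 10 CPM in all 5 control libraries. The number with at most 3 reads in every library was 361 in the 3 Control_TSA libraries and 338 in the 2 Control_NaB libraries. These numbers rest on different numbers of libraries and are given side by side only.

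Control libraries of the same project resembled each other somewhat more than libraries of different projects, although 2 of the 3 measures overlapped in their ranges. Over the 4 pairs within a project the median absolute log2 difference per gene was 0.151 to 0.206, and over the 6 pairs across projects it was 0.185 to 0.258. Pearson's r across genes was 0.9854 to 0.9884 within projects and 0.9797 to 0.9848 across them, ranges that did not overlap, which describes the pairs, since genes are not independent replicates. All pairs differed by more than counting noise, with a chi-square per degree of freedom of 16.5 to 31.6 within projects and 24.6 to 53.9 across them. Within Control_TSA, replicates 1 and 2 were closest, with a chi-square per degree of freedom of 16.5, followed by replicates 1 and 3 with 20.8 and replicates 2 and 3 with 31.6. Control_TSA replicate 2 had a value of 24.6 against Control_NaB replicate 1, lower than against replicate 3 of its own group. In the principal component analysis of the 5 control libraries, component 1 held 41.1% of the variance. The Control_TSA libraries had scores of -31.6, -7.91 and -26.7 on it, and the Control_NaB libraries had 25.6 and 40.6. Component 2, with 22.6% of the variance, separated Control_TSA replicate 2 at 36.4 from Control_TSA replicate 3 at -28.9.

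**Figure D1:**
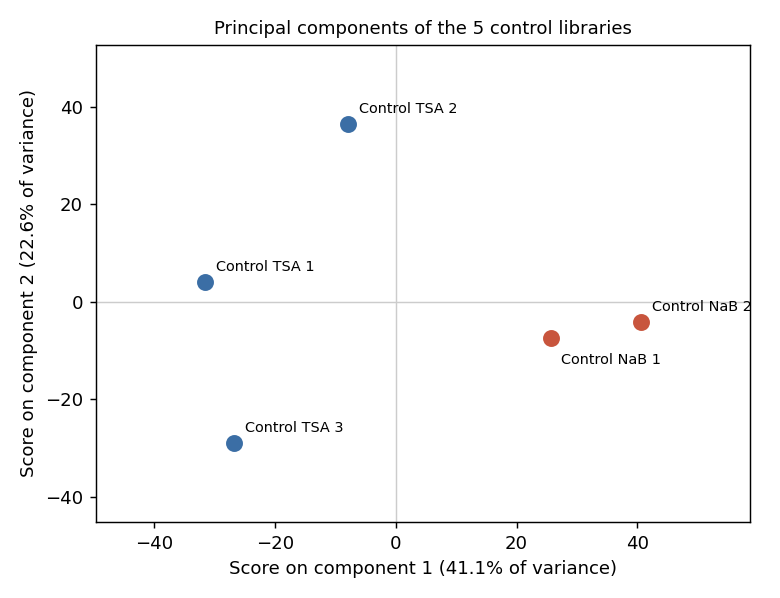
Principal component scores of the 5 control libraries (blue, Control_TSA, n = 3; red, Control_NaB, n = 2), each point 1 library, with the share of variance of each component on its axis. The Control_NaB libraries lie at 25.6 and 40.6 on component 1, and Control_TSA replicate 2 at -7.91 is the Control_TSA library nearest to them.

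Between the untreated cultures of the projects, 243 of 15717 genes tested differed (1.55%), of which 155 were higher in Control_NaB (0.986%) and 88 were lower (0.56%). A gene was called where limma's adjusted p on log2(normalized count + 1) was below 0.05 and the log2 difference was at least 0.5 in size. Most called differences were modest, with a median of 0.86 among the higher and -0.89 among the lower genes on the log2 scale. A log2 difference of at least 1 was found in 105 called genes, of at least 2 in 18 and of at least 3 in 7. For comparison, the median difference of all genes tested was -0.02, their median absolute difference was 0.18, and the median SD among replicates was 0.15 in Control_TSA and 0.12 in Control_NaB. In all 243 called genes the groups did not overlap, as was the case in 36.4% of all genes tested, with Control_NaB above in 16.6% and below in 19.8%. Symbols were known for 54 of the called genes, 44 higher and 10 lower, and 189 had none. The count depended on the libraries: it was 22 without Control_NaB replicate 2, 71 without Control_TSA replicate 1, 144 without Control_TSA replicate 3 and 461 without Control_TSA replicate 2. With the 5 control libraries alone it was 22, and with DESeq2 on the recovered reads it was 591, which included 236 of the 243.

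**Figure D2:**
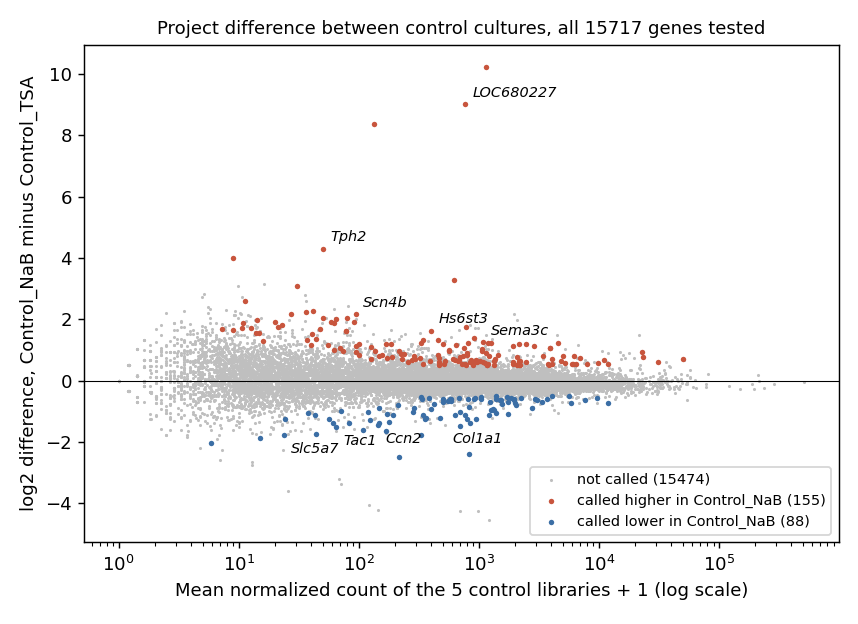
The log2 difference of Control_NaB minus Control_TSA (y axis) against the mean normalized count of the 5 control libraries plus 1 (x axis, log scale), 1 point for each of the 15717 genes tested. Red points are the 155 genes called higher and blue points the 88 called lower in Control_NaB, and Tph2 and LOC680227 stand far above the other genes with a symbol.

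Tph2 encodes the neuronal tryptophan hydroxylase, the rate-limiting enzyme of serotonin synthesis. It was nearly silent in Control_TSA, with 4, 3 and 6 reads, and was detected with 66 and 157 reads in Control_NaB. The normalized counts were 4.22, 3.09 and 6.40 against 68.3 and 164, so that the groups did not overlap. The log2 difference was 4.31 (SE 0.43, adjusted p = 0.00206, limma), and the ratio of the pooled CPM values was 26.1 (95% exact interval 15.0 to 49.9, counting error only). The log2 difference was 4.93 without Control_NaB replicate 1 and 3.68 without Control_NaB replicate 2, and the gene was called in both. The treated cultures of the same plates showed the same order, with 16, 13 and 17 reads after TSA and 84 and 150 reads after NaB (log2 difference 2.82, adjusted p = 0.00469, limma).

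No other paired gene of serotonin synthesis or transport, nor Fev, passed the test. Fev, a transcription factor of serotonergic neurons, had normalized counts of 0, 1.03 and 0 in Control_TSA and 1.04 and 0 in Control_NaB. Slc6a4, the serotonin transporter, had 4.22, 4.12 and 7.47 against 7.25 and 3.13, and Tph1, the peripheral tryptophan hydroxylase, had 4.22, 1.03 and 4.27 against 4.14 and 7.31. The values of these 3 genes overlapped between the groups and stayed below 10 in every control library. Slc18a1, a vesicular monoamine transporter, had 5.27, 12.4 and 13.9 against 21.7 and 14.6, groups that did not overlap (log2 difference 0.81, adjusted p = 0.42, limma). Gch1, which encodes the first enzyme of the synthesis of tetrahydrobiopterin, the cofactor of tryptophan hydroxylases, was chosen after its values were seen. Its normalized counts were 32.7, 31.9 and 27.7 in Control_TSA and 13.5 and 11.5 in Control_NaB, and it was lower in Control_NaB (log2 difference -1.24, adjusted p = 0.0222, limma).

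Of the 10 tested members of the monoamine and acetylcholine list, Tph2 was called higher and Slc5a7 lower, beside 1.55% of all genes and 2.95% of the named genes tested. Slc5a7 is the choline transporter that feeds acetylcholine synthesis, and it had normalized counts of 34.8, 25.8 and 34.1 in Control_TSA and 13.5 and 5.22 in Control_NaB. The groups did not overlap (log2 difference -1.77, SE 0.37, adjusted p = 0.0419, limma), but the call was lost with edgeR, without the filter on low counts, with the 5 control libraries alone and without Control_TSA replicate 1 or 3 or Control_NaB replicate 2. The log2 difference was -2.38 without Control_NaB replicate 1 and -1.16 without Control_NaB replicate 2. Slc18a3, the vesicular acetylcholine transporter, had 50.6, 39.1 and 77.9 against 37.3 and 43.9 and did not pass the test. Aldh1a1, an aldehyde dehydrogenase of dopaminergic neurons and other cells, had 52.7, 47.4 and 28.8 against 126 and 158. Its groups did not overlap, yet it did not pass either (adjusted p = 0.113, limma). The median log2 difference of the list was 0.34, beside 0.21 for all 1830 named genes tested.

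Scn4b encodes an auxiliary beta subunit of voltage-gated sodium channels. Its normalized counts were 38.0, 44.3 and 33.1 in Control_TSA and 170 and 182 in Control_NaB, and every Control_NaB library exceeded every Control_TSA library (log2 difference 2.17, SE 0.18, adjusted p = 0.000395, limma). LOC680227, a gene known by its locus name, differed most among the genes with a symbol. It had 4, 2 and 2 reads in Control_TSA and 1734 and 1937 reads in Control_NaB. Its fitted log2 difference was 9.01 (SE 0.35, adjusted p = 1.16e-06, limma), and the ratio of the pooled CPM values was 699 (95% exact interval 354 to 1620, counting error only). Scn4b, LOC680227 and Tph2 were the genes with a symbol, among those named by the rule, that were called under every alternative tried.

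A further pair of genes, without a symbol, were at or near 0 reads in Control_TSA. ENSRNOG00000055225 had no read in any Control_TSA library and 299 and 334 reads in Control_NaB, at least 107-fold higher against 3 reads per library. ENSRNOG00000051257 had 1, 2 and 1 reads in Control_TSA and 2343 and 3111 reads in Control_NaB, a ratio of 2077 (95% exact interval 811 to 7626, counting error only). The treated libraries divided in the same way. For ENSRNOG00000055225 there were 0, 0 and 2 reads after TSA and 153 and 171 after NaB, and for ENSRNOG00000051257 there were 0, 0 and 5 reads after TSA and 1058 and 1510 after NaB. These were the only 2 genes with at least 30 reads in both Control_NaB libraries and at most 3 in each Control_TSA library, and no gene showed the reverse. Among the lower genes without a symbol, ENSRNOG00000005825 had normalized counts of 364, 393 and 215 in Control_TSA and 63.2 and 49.1 in Control_NaB (log2 difference -2.47), and its call was lost without Control_NaB replicate 2 (adjusted p = 0.0682, limma). ENSRNOG00000001416 had 1334, 1319 and 1010 against 284 and 189 (log2 difference -2.38) and was called in all 16 alternatives. Neither gene's groups overlapped.

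Promoter sequences of the most stable named calls are shown here so that the start of each gene can be inspected. RefSeq promoters on the rat build GRCr8 were matched by symbol to 2 of the 3 genes, Tph2 and Scn4b. GRCr8 is not the build on which the reads were counted, and each sequence is the 250 bases before the annotated start, 5′ to 3′ on the gene's strand. Tph2 lies on the minus strand with this stretch at chr7:52675640-52675889, and Scn4b lies on the plus strand at chr8:54343623-54343872. Capitals mark matches, on either strand, to any of 5 motifs. The TATA box was searched as TATAAA, and the cyclic AMP response element as TGACGTCA or, shortened, as TGACG. The GC box was searched as GGGCGG and the CCAAT box by the letters of its name.
Tph2: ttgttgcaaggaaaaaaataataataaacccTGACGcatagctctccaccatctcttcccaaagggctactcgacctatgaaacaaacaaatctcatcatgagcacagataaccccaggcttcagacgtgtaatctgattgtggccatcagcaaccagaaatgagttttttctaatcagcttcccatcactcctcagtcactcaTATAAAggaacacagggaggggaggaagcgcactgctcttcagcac
Scn4b: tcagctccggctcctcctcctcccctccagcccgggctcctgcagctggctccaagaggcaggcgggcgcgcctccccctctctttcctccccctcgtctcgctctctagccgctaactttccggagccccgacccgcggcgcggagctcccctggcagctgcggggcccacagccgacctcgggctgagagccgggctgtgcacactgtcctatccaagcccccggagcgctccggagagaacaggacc
The Tph2 stretch held TATAAA at -46 to -41 and TGACG at -219 to -215 from the start, and the Scn4b stretch held none of the letters searched. Over 33469 promoters of the same length, TATAAA was present in 12.9%, TGACG in 18.2%, TGACGTCA in 1.59%, GGGCGG in 30.5% and CCAAT in 34% (TGACG is part of TGACGTCA). The matches describe letters and not binding sites.

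Sema3c, Hs6st3 and Aebp1 were called higher and Gpc3 and Ccn2 lower in Control_NaB. Sema3c, a secreted semaphorin that guides axons and migrating cells, had normalized counts of 593, 842 and 640 in Control_TSA and 1354 and 2018 in Control_NaB (log2 difference 1.27, adjusted p = 0.021, limma). Hs6st3, a heparan sulfate 6-O-sulfotransferase, had 246, 145 and 275 against 667 and 671 (log2 difference 1.64, adjusted p = 0.0128, limma). Neither gene's groups overlapped. Aebp1, a secreted carboxypeptidase-like protein of the matrix, had 19.0, 39.1 and 28.8 against 102 and 127 (log2 difference 2.00, adjusted p = 0.00776, limma). Chosen after their values were seen, Sned1, Npnt, Bcam, Dkk3 and Adamtsl5 were called higher with log2 differences of 2.04, 1.19, 1.13, 0.61 and 1.55. Gpc3, a glypican that carries heparan sulfate at the cell surface, had 207, 110 and 174 in Control_TSA and 68.3 and 60.6 in Control_NaB (log2 difference -1.29, adjusted p = 0.0279, limma). Ccn2, the connective tissue growth factor, had 217, 188 and 176 against 79.7 and 62.6 (log2 difference -1.44, adjusted p = 0.0326, limma). Both lost their calls without the filter on low counts, with the 5 control libraries alone and when any single library other than Control_TSA replicate 2 was left out.

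Stat5a and Il17rd were called higher and Tac1 and Tmem132c lower. Stat5a, a transcription factor activated by cytokines and growth hormone, had normalized counts of 20.0, 40.2 and 21.3 in Control_TSA and 80.8 and 125 in Control_NaB (log2 difference 1.92, adjusted p = 0.0128, limma). Il17rd, an inhibitor of fibroblast growth factor signalling, had 118, 143 and 92.8 against 201 and 363 (log2 difference 1.21, adjusted p = 0.0456, limma). Among receptors chosen after their values were seen, Agtr1a (angiotensin II), Adra1a (noradrenaline) and Il6r (interleukin 6) were called higher, with log2 differences of 1.81, 1.12 and 1.05, and Gpr3, an orphan receptor that activates adenylate cyclase, was called lower at -1.11. Tac1, which encodes the precursor of substance P, had 98.1, 86.5 and 75.7 against 32.1 and 27.1. It was lower in both Control_NaB libraries than in any Control_TSA library (log2 difference -1.52, SE 0.21, adjusted p = 0.0104, limma). Tmem132c, a membrane protein gene, had 204, 177 and 160 against 92.1 and 100 and was also called lower (log2 difference -0.89, adjusted p = 0.0327, limma).

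Hydin, Glb1l2 and Cyct were called higher in Control_NaB. Hydin, a component of the central apparatus of motile cilia, had normalized counts of 68.6, 65.9 and 57.6 in Control_TSA and 165 and 136 in Control_NaB (log2 difference 1.21, adjusted p = 0.011, limma). The axonemal dynein gene Dnah1 and Ttc21a, both chosen after their values were seen, were called with log2 differences of 2.26 and 1.00. Dynlrb2, the only paired marker of ependymal cells, had 19.0, 12.4 and 14.9 against 23.8 and 30.3 and did not pass the test. Glb1l2, a relative of beta-galactosidase, had 28.5, 59.7 and 21.3 against 149 and 135 (log2 difference 2.06, adjusted p = 0.021, limma). Cyct, the testis form of cytochrome c, had 30.6, 23.7 and 28.8 against 75.6 and 146 (log2 difference 1.90, adjusted p = 0.0256, limma). Chosen after their values were seen, the acyl-CoA thioesterase genes Acot11 and Acot5 were called higher and lower (2.26 and -2.03 on the log2 scale), and the peroxisomal transporter gene Abcd2 was called higher (0.68). Leaving out Control_NaB replicate 2, or fitting the 5 control libraries alone, ended the calls of Sema3c, Hs6st3, Aebp1, Stat5a, Il17rd, Tac1, Tmem132c, Hydin, Glb1l2 and Cyct, besides those of Gpc3, Ccn2, Slc5a7 and Rgs9. Without the filter on low counts Il17rd, Tmem132c and Cyct were not called. Without Control_TSA replicate 1 the calls of Sema3c, Il17rd, Tmem132c, Glb1l2 and Cyct were lost, without Control_TSA replicate 3 those of Sema3c, Il17rd and Cyct, and without Control_NaB replicate 1 those of Tmem132c and Glb1l2.

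**Figure D3:**
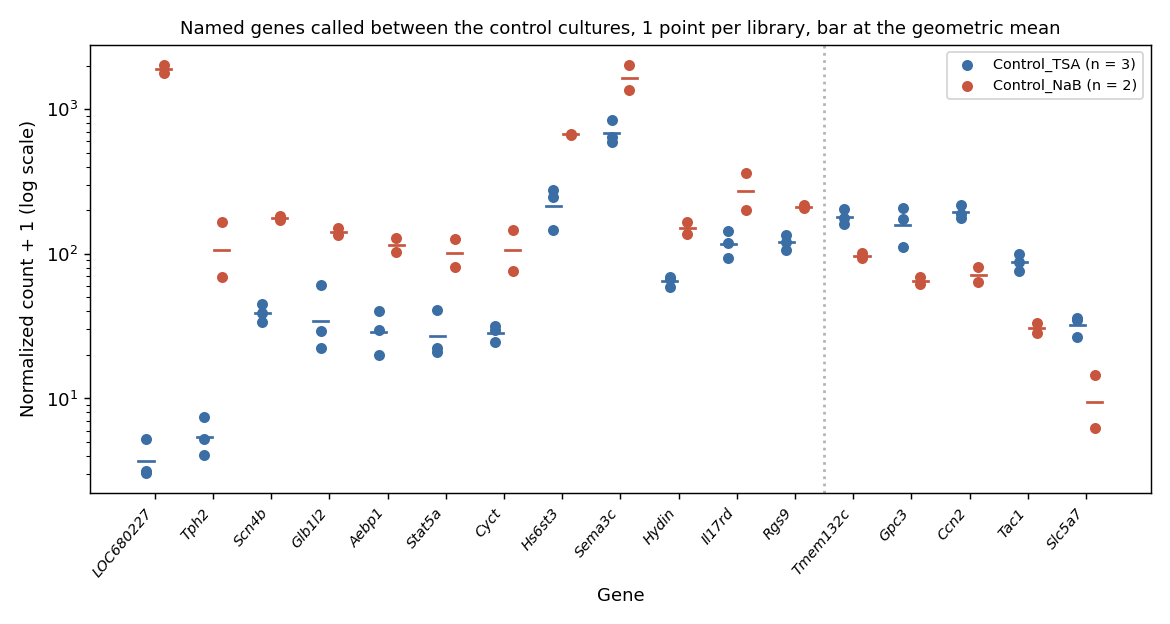
Normalized count plus 1 (log scale) of 17 called genes in the control libraries, 1 point per library (blue, Control_TSA, n = 3; red, Control_NaB, n = 2), with bars at geometric means. The 12 genes left of the dotted line were higher and the 5 to its right were lower in Control_NaB, and no gene's points overlap between groups.

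Markers of the cell types that such cultures can hold were examined where an identifier was paired. The lists, 46 in all, covered pathways and quality checks as well as cell types. Of the 46 lists, 14 had no paired member, and 87 of the 589 genes listed by symbol were paired. Besides Tph2 and Slc5a7, both of a pathway list, called members were Tac1, of the GABAergic interneuron list, and Rgs9, of the striatal list. These 4 called genes stand among 111 list genes tested, gene families matched by name included, a share near that of the named genes as a whole (2.95%). Rgs9, a GTPase accelerator of striatal neurons, had normalized counts of 105, 119 and 133 in Control_TSA and 215 and 208 in Control_NaB (log2 difference 0.83, adjusted p = 0.0357, limma), and it lost its call without the filter on low counts, with the 5 control libraries alone and without Control_TSA replicate 1 or either Control_NaB replicate. Drd2, the D2 dopamine receptor, had 299, 357 and 635 against 573 and 582, and Pdyn, the dynorphin precursor, had 33.8, 28.8 and 32.0 against 31.1 and 16.7. Neither passed the test, and their groups overlapped. Without Control_TSA replicate 3, Drd2 was called (log2 difference 0.82, adjusted p = 0.0353, limma). Pvalb, the calcium buffer of fast-spiking interneurons, had 3.16, 7.21 and 1.07 against 20.7 and 12.5 (adjusted p = 0.0733, limma). Its groups did not overlap, and it was called with DESeq2 (adjusted p = 0.04995) and without Control_TSA replicate 2 (log2 difference 2.55, adjusted p = 0.0228, limma). The summed level of the 4 paired striatal genes was 15.5, 18.4 and 27.3 CPM in Control_TSA and 29.8 and 28.9 CPM in Control_NaB. Drd2, whose groups overlapped, was the most abundant of them. The median log2 difference of the 4 genes was 0.29, beside 0.21 for all named genes tested.

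Microglia, blood and endothelium were represented by few reads in both projects, as far as paired markers go. Tmem119 of microglia had normalized counts of 2.11, 1.03 and 5.33 in Control_TSA and 1.04 and 2.09 in Control_NaB. Slc4a1, the anion exchanger of red blood cells, had 1.05, 4.12 and 1.07 against 1.04 and 1.04. Each of these lists was represented by that gene alone. The endothelial transcription factor genes Erg and Sox17 had at most 3 reads in every control library, and Kdr, a receptor of vascular endothelial growth factor, had 22.2, 12.4 and 20.3 against 17.6 and 37.6. The 5 endothelial genes summed to 1.59, 1.19 and 1.12 CPM in Control_TSA and to 1.35 and 2.34 CPM in Control_NaB. Among 5 mural genes, none was called. Rgs5 of pericytes had 2.11, 4.12 and 4.27 against 5.18 and 12.5. Des, of muscle-type cells, went the other way with 8.44, 8.24 and 8.53 against 7.25 and 7.31. Both Control_NaB libraries lay above all Control_TSA libraries in 2 of the 5 genes (Rgs5 and Kcnj8) and below them in 1 (Des). Among the named genes tested the shares were 24.2% above and 8.58% below, and among all genes tested 16.6% and 19.8%. These genes rest on few reads, with 8, 8 and 8 against 7 and 7 for Des and 0, 0 and 1 against 2 and 3 for Kcnj8. The 5 genes summed to 1.47, 0.965 and 1.05 CPM in Control_TSA and to 2.47 and 1.93 CPM in Control_NaB. In the choroid plexus list, Clic6 had 3.16, 3.09 and 8.53 against 2.07 and 40.7, so that 1 Control_NaB library held most of its reads. It was called only without Control_NaB replicate 1 (log2 difference 2.93, adjusted p = 0.0296, limma).

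Of the progenitor list 5 of 14 genes were paired, of the activity-induced transcription factors 8 of 17 and of the activity-induced effectors 3 of 17. With a share of 1.55% called over all genes, a count of 0 in lists of this size says little about them. Nes, which encodes the intermediate filament nestin of progenitors and reactive astrocytes, had normalized counts of 587, 856 and 712 in Control_TSA and 755 and 976 in Control_NaB. Eomes, of intermediate progenitors, had 7.38, 3.09 and 3.20 against 4.14 and 5.22. Hopx had 215, 177 and 76.8 against 291 and 265, groups that did not overlap (log2 difference 0.95, adjusted p = 0.198, limma). Neurog2 went the other way (log2 difference -0.56), and its groups overlapped. None of the 5 progenitor genes tested was called, and their median log2 difference was 0.11. None of the 8 activity-induced transcription factor genes tested was called either, with a median of -0.02. Junb, an AP-1 subunit and the most abundant of them, had 972, 876 and 830 against 665 and 560, groups that did not overlap (log2 difference -0.55, adjusted p = 0.39, limma). Nr4a2, an orphan nuclear receptor, had 155, 148 and 147 against 155 and 150. Of the 3 activity-induced effector genes tested, none was called and the median log2 difference was 0.32. Scg2, a secretogranin, had 1841, 1449 and 1729 against 1857 and 2339, Gadd45b, a growth arrest and stress gene, had 85.4, 87.6 and 69.3 against 92.1 and 144, and Nptx2, a synaptic pentraxin, had 1047, 2112 and 1213 against 839 and 843. Both Control_NaB libraries lay above all Control_TSA libraries for Scg2 and Gadd45b, as in 24.2% of the named and 16.6% of all genes tested. They lay below all Control_TSA libraries for Nptx2, as in 8.58% of the named and 19.8% of all genes tested.

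Genes of the major histocompatibility complex include those whose products present peptides to T cells, and none of the 18 tested was called. Their median log2 difference was 0.64, beside 0.21 for all named genes tested, and in 7 (38.9%) both Control_NaB libraries exceeded all Control_TSA libraries, as was the case in 24.2% of the named genes and in 16.6% of all genes tested. The list summed to 19.7, 25.8 and 16.1 CPM in Control_TSA and 31.0 and 44.0 CPM in Control_NaB. RT1-A2, a class I gene, had normalized counts of 78.1, 54.6 and 76.8 against 112 and 262. RT1-M3-1, the most abundant of the list, had 96.0, 157 and 92.8 against 110 and 169, groups that overlapped. RT1-N3, RT1-DOa, RT1-Bb and RT1-Ba had negative log2 differences (-0.23, -0.34, -0.05 and -0.02). RT1-DOa had 1 read in Control_TSA replicate 2 and none in the other control libraries. Some genes of this list are close copies of one another, so that reads could have been divided among them by the counting. The part of such a division in the values was not tested. The 10 paired histone genes summed to 18.7, 24.4 and 18.6 CPM in Control_TSA and to 24.0 and 21.8 CPM in Control_NaB.

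Among named genes with a mean of at least 100 normalized counts in the controls, the Control_TSA cultures differed most from each other in Col1a1. Col1a1, a chain of type I collagen made by meningeal and other fibroblasts, had normalized counts of 909, 47.4 and 1379 in Control_TSA and 149 and 137 in Control_NaB. The Control_NaB libraries lay between Control_TSA replicate 2 and the other 2 Control_TSA libraries, and the project difference did not pass the test (log2 difference -1.45, SE 1.06, adjusted p = 0.489, limma). Without Control_TSA replicate 2 it did (-2.96, adjusted p = 0.000158, limma), in 1 of 16 alternatives only. Over the alternatives the log2 difference ranged from -2.96 to -0.55. Igf2, insulin-like growth factor 2, had 112, 5.15 and 22.4 against 15.5 and 11.5, and Aldh1a2, a retinoic acid synthesis gene of the meninges, had 8.44, 1.03 and 14.9 against 5.18 and 0. In all 3 genes Control_TSA replicate 2 was the lowest of its group. The 5 paired meningeal fibroblast genes summed to 37.4, 2.67 and 49.0 CPM in Control_TSA and to 8.30 and 6.10 CPM in Control_NaB, and Col1a1 was the most abundant of them. None of the 5 was called, their median log2 difference was -0.82, and the part of these cells in the other differences was not tested.

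The 3 paired genes of the reactive astrocyte list and 2 of the 4 of the interferon response list had their highest Control_TSA value in replicate 2. Cd44, a hyaluronan receptor of reactive astrocytes, had normalized counts of 189, 469 and 212 in Control_TSA and 389 and 546 in Control_NaB. Timp1, an inhibitor of metalloproteinases, had 120, 290 and 161 against 256 and 427, and the small heat shock gene Hspb1 had 7.38, 52.5 and 11.7 against 24.8 and 44.9. In each of these genes Control_TSA replicate 2 was the highest of its group and lay within the range of Control_NaB or above it. The 3 genes summed to 11.1, 29.2 and 13.1 CPM in Control_TSA and to 24.2 and 36.2 CPM in Control_NaB, with a median log2 difference of 0.89 and none called. The immunoproteasome genes Psmb8 and Psmb9 had 3.16, 31.9 and 8.53 against 30.02 and 28.2, and 35.9, 108 and 55.5 against 107 and 122. Neither was called, and the 4 interferon response genes summed to 1.51, 5.16 and 2.31 CPM against 5.20 and 5.69 CPM.

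Control_TSA replicate 2 also held an extreme value in 5 other genes chosen for their spread within Control_TSA. That spread was not tested, and none of the 5 was called between the controls. Metallothionein Mt1 had normalized counts of 89.7, 460 and 133 in Control_TSA and 267 and 291 in Control_NaB. The actin-binding genes Synpo2 and Tagln2 had 23.2, 117 and 43.7 against 133 and 232, and 67.5, 256 and 134 against 247 and 197. Synpo2 had a log2 difference of 1.81 (adjusted p = 0.0978, limma), and without Control_TSA replicate 2 it was called (2.42, adjusted p = 0.00981, limma). Col12a1, a fibril-associated collagen, had 179, 449 and 149 against 420 and 548, and Hs3st2, a heparan sulfate 3-O-sulfotransferase, had 400, 217 and 741 against 304 and 322. For Col12a1 the log2 difference was 1.06 (adjusted p = 0.198, limma), and without Control_TSA replicate 2 it was called (1.55, adjusted p = 0.0261, limma). Synpo2 and Col12a1 were each called in 1 of 16 alternatives only. Both were chosen for a spread that leaving out Control_TSA replicate 2 reduces by construction, so that these calls add no support for a project difference. In the TSA-treated culture of the same replicate number the deviation kept its direction. Mt1 had 1926 there against 757 and 913, Col12a1 had 1152 against 632 and 601, and Hs3st2 had 788 against 1185 and 1528. Synpo2 had 392 against 297 and 274, Tagln2 had 1032 against 678 and 824, and Col1a1 had 696 against 798 and 879. In the last gene the treated libraries were close, whereas the controls had differed widely.

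**Figure D4:**
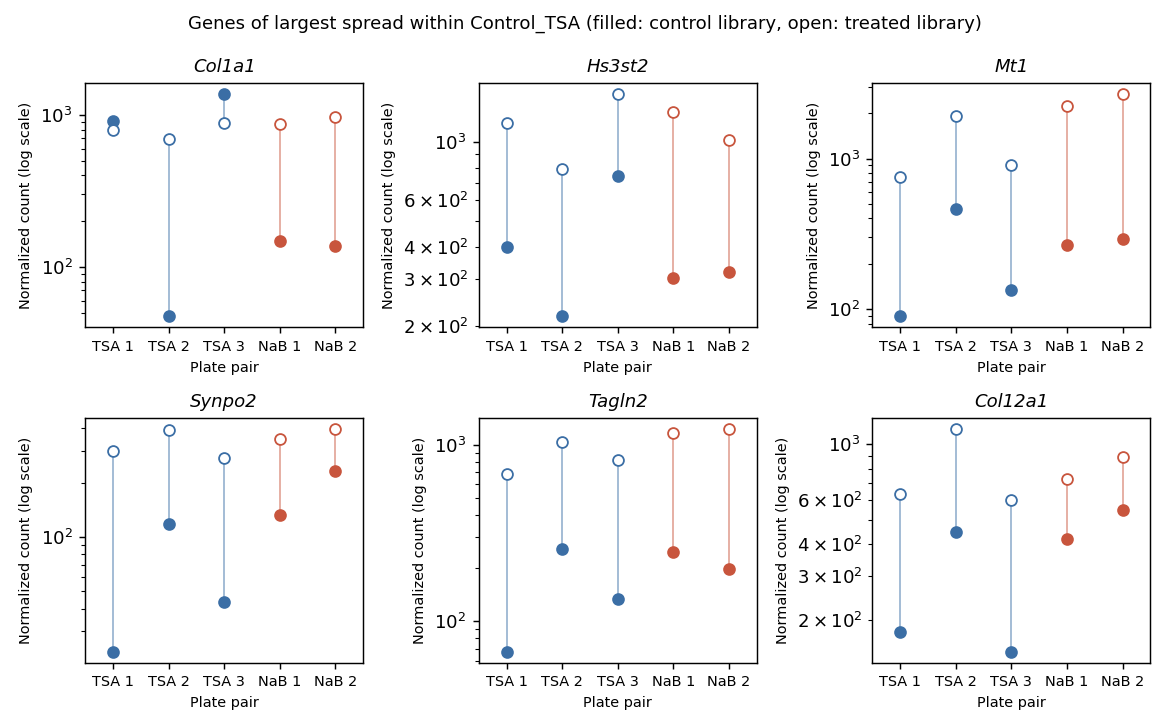
Normalized counts (log scale), by plate pair, of the 6 genes with the largest spread within Control_TSA. Only genes with a symbol and a mean of at least 100 normalized counts in controls were ranked. Filled points are control and open points treated libraries, 1 library each, blue for the TSA and red for the NaB project. For Col1a1 the controls lie at 909, 47.4 and 1379 in the TSA project and at 149 and 137 in the NaB project, while the treated libraries lie between 696 and 961.

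The project difference of the untreated cultures was set beside that of the treated cultures, which share no library with them but come from the same plates. Between NaB-treated and TSA-treated cultures, 694 genes were called (4.42%), 189 higher (1.2%) and 505 lower (3.21%). Drug, dose, time and project cannot be told apart there. Of the 155 genes called higher in Control_NaB, 144 (92.9%) had a positive difference in the treated cultures, against 49.9% of all genes tested, and 39 (25.2%) were called higher. Of the 88 called lower, 78 (88.6%) had a negative difference, against 50.1% of all genes, and 29 (33.0%) were called lower. None was called in the opposite direction in the treated cultures. Because control and treated libraries of a plate pair deviated together (r of 0.284 to 0.392), genes chosen on the control libraries share signs with their plate partners for that reason too, and the shares over all genes take no account of it. Seen from the treated side, 20.6% of the genes called higher and 5.74% of those called lower were also called in the controls. The treated differences were smaller, with medians of 0.42 and -0.41 over the genes called higher and lower in the controls, genes that had been chosen by the size of their control difference. Across all 15717 genes, which are not independent replicates, Pearson's r between the differences was 0.43. The shared deviations of plate pairs enter this value too, and its size without a project difference was not estimated. The count of 694 was 414 without TSA-treated replicate 1, 272 without NaB-treated replicate 1 and 234 without NaB-treated replicate 2.

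For Tmem132c, Dkk3 and Bcam the project difference was called in the treated cultures as well as in the controls. Tmem132c had normalized counts of 611, 484 and 527 after TSA and 264 and 356 after NaB, and it was lower in the NaB project in treated cultures too (log2 difference -0.81, adjusted p = 0.0217, limma). Dkk3 and Bcam were higher, with log2 differences of 0.92 and 1.07 in the treated cultures. For Tac1 the treated values were 284, 228 and 276 after TSA and 240 and 162 after NaB, and they overlapped (log2 difference -0.41, adjusted p = 0.285, limma). For Ccn2 they were 175, 250 and 372 against 319 and 407 (log2 difference 0.51, adjusted p = 0.299, limma). The change of the difference between control and treated cultures was tested and did not pass for either gene (adjusted p = 0.182 for Tac1 and 0.0717 for Ccn2, limma). This fit took no account of the plate pairs, in which control and treated libraries deviated together. Whether either gene passes within plate pairs was not tested.

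**Figure D5:**
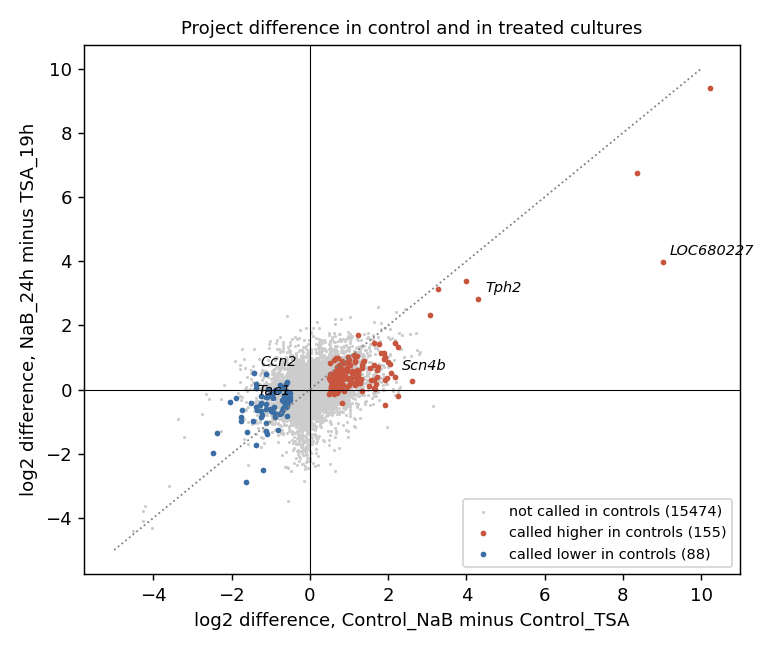
The log2 difference between treated cultures, NaB_24h minus TSA_19h (y axis), against that between control cultures, Control_NaB minus Control_TSA (x axis), 1 point per gene, with a dotted line of equal differences. Of the 155 red points (called higher in controls) 144 lie above zero on the y axis, and of the 88 blue points (called lower) 78 lie below it.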

How the data were processed

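RNA sequencing of oligo(dT)-selected RNA was analysed for 5 control and 5 treated libraries. The authors mapped paired-end reads with STAR 2.7.9a (build Rnor6), assigned them to genes with featureCounts 2.0.1 and scaled them with DESeq2 1.29. In the deposited signal, each library's read counts were divided by its median-of-ratios size factor. Division by each library's smallest value above 0 recovered whole reads for 100% of values (tolerance 0.001). Whether reads were counted by strand is not given in the sources used here, so that overlapping genes and close paralogs are uncertain. The dose of NaB is in micromolar units in the labels and in millimolar units in the paper. Symbols came from the rows at hand of a supplementary list of upregulated genes, whose fold changes and p-values were not used.

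limma 3.58.1 (R 4.3.3, empirical Bayes trend) was fitted to log2(normalized count + 1) in all 10 libraries, as 4 groups with a common estimate of spread. Fold changes on this scale understate the change of low genes. filterByExpr (edgeR 4.0.16, minimum count 10) kept 15717 genes, and Benjamini-Hochberg adjustment ran over all of them, with two-sided tests. Calls needed an adjusted p below 0.05 and a log2 difference of at least 0.5 in size. Alternatives were DESeq2 1.42.0 and edgeR on recovered reads, other scalings, filters, pseudocounts and thresholds, the control libraries alone, a replicate block and each library left out. On simulated data for this comparison over 15717 genes, 82 of 100 genes changed by a log2 fold of 1 and 99 of 100 changed by 2 were recovered, with 14 false calls. The changed genes were drawn only from genes with a mean of at least 50 normalized counts over the groups. Libraries were simulated independently, without the shared deviations of plate pairs. The recovery therefore does not describe genes of lower level or the effect of these deviations.

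The part of the series studied and the lists were chosen with earlier results of these data known. Genes were named by a rule: with a symbol and a mean of at least 50 normalized counts in controls, the 10 called with the largest positive and the 10 with the most negative difference, called members of lists, the first 2 detected markers of each cell type, the 6 of largest spread within Control_TSA with a mean of at least 100, the paired genes of the study's qPCR panel (4 of 17), and 2 identifiers without a symbol in each direction. Other called genes are marked as chosen after their values were seen. Among the most negative differences, only Tac1, Ccn2, Gpc3 and Tmem132c met the limits of the rule, fewer than the 10 allowed. The pairs of the block come from replicate numbers and consecutive library names. Deviations from group means correlated within every pair, with r of 0.284, 0.392 and 0.314 in the TSA project and 0.342 in the NaB project. The test of whether a project difference changed between control and treated cultures was added after the data were seen. It was fitted without the plate pairs.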

Additional observations from a re-analysis of the deposited data

Results flagged for a closer look

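Among the genes named by the rule, Scn4b and LOC680227 were singled out because their project difference itself differed between control and treated cultures. Both had been named for the size of their control difference, which enters the change of the difference too. A larger difference in the controls was thereby favoured in advance. The change of the difference was tested across all genes, without the plate pairs (limma). Of 15717 genes 47 passed, 3 of them among the 243 called between the controls. For Scn4b the difference was larger in the controls by 1.795 on the log2 scale (adjusted p = 0.0182), with normalized counts of 38.0, 44.3 and 33.1 against 170 and 182 in controls and of 130, 113 and 126 after TSA against 166 and 154 after NaB. For LOC680227 it was larger in the controls by 5.053 (adjusted p = 0.00471), with 63.8, 34.4 and 69.0 after TSA and 662 and 1080 after NaB.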

How the results depend on the processing

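With 2 and 3 libraries a group, the number of called genes is uncertain. The 243 genes called between controls became 591 with DESeq2, 104 without a filter, 22 with the 5 control libraries alone and 105 with a minimum log2 difference of 1, and 22 to 461 when each library was left out. The 694 of the treated cultures became 1075 with no minimum log2 difference and 287 with a minimum of 1, and 234 to 650 when each library was left out. The number of genes whose control groups did not overlap, 5715, became 7074 to 9755 when each library was left out. edgeR (263 with TMM, 256 with the deposited size factors), library totals (238), limma with TMM (246) and pseudocounts of 0.5 and 5 (241 and 255) gave control counts within 1.5 times of 243. With the replicate block, which pairs plates, 297 genes were called between controls and 703 between treated cultures. The control groups share no plate, so the block enters only through the spread. Of 21 genes named by the rule and called, 6 were called in every alternative: Scn4b, LOC680227, Tph2, ENSRNOG00000055225, ENSRNOG00000051257 and ENSRNOG00000001416. No named gene's call changed sign, and called genes chosen after their values were seen were not followed through the alternatives. At this depth a level below 3 reads in a library is not measured with useful precision. For the changed counts beyond fewer libraries or another threshold, the cause was not tested.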

Other observations

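A set of 6 genes without a symbol followed the plate pairs of the NaB project, which was noticed after the values were seen. None of the 11 genes of the sex-linked list was paired with an identifier, so that sex linkage was not tested. Each of the 6 genes had at least 30 normalized counts in every Control_TSA library. Each was also more than 10-fold below the lowest TSA-project library in the second NaB plate pair, control and treated alike. Over the 6 genes the normalized counts were 36.9 to 1846, 33.0 to 1855 and 43.7 to 1829 in the Control_TSA libraries. They were 9.32 to 511 in Control_NaB replicate 1 and 0 to 13.6 in Control_NaB replicate 2. Relative to the mean of the TSA project, the level was 21.7 to 34.0% in Control_NaB replicate 1 and 23.5 to 41.7% in its NaB-treated partner, and at most 1.12% in Control_NaB replicate 2 and at most 2.18% in its partner. None of the 6 was called between the controls (adjusted p 0.0978 to 0.128, limma).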
